A study of Mus musculus with 6 samples.

Results

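The genes of 10 myeloid C-type lectin receptors, *Clec4a1*, *Clec4a2*, *Clec4a3*, *Clec4d*, *Clec4e*, *Clec4n*, *Clec5a*, *Clec7a*, *Clec10a*, and *Clec12a*, were followed in chronic stroke infarcts. They were chosen by symbol and are 10 of the 46078 genes in the count tables. Expression was measured by RNA-Seq in 3 infarcts and 3 contralateral cortices from wild type C57BL/6J mice aged 3 months, 7 weeks after distal middle cerebral artery occlusion with hypoxia (DH stroke). The mice were male, all libraries came from animals with a stroke, no drug treatment is named for either region, and the contralateral cortex was the reference. Infarcts were recognized by eye and dissected as whole tissue. The labels do not say which infarct and which cortex came from 1 mouse, nor that libraries are separate mice, so *p* values measure only the spread between these samples, which may be technical.

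C-type lectin receptors are surface proteins with which macrophages, monocytes, dendritic cells, neutrophils, and microglia bind sugars, lipids, and material of dying cells. The activating receptors signal through the kinase Syk and the adaptor Card9 to NF-κB and cytokine genes. Dectin-1 (*Clec7a*) recruits Syk through its own tail, Mincle (*Clec4e*), MCL (*Clec4d*), and Dectin-2 (*Clec4n*) use the adaptor FcRγ (*Fcer1g*), and MDL-1 (*Clec5a*) uses DAP12 (*Tyrobp*) and DAP10 (*Hcst*). The inhibitory receptors MICL (*Clec12a*) and DCIR (*Clec4a2*) carry motifs that bind the phosphatases SHP-1 (*Ptpn6*) and SHP-2 (*Ptpn11*). In the brain, *Clec7a* is known as a gene of microglia that respond to damage or myelin debris.

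The libraries held 11943570 to 19933962 gene counts. The log2 profiles of tested genes correlated at 0.957 to 0.973 among infarcts, 0.985 to 0.988 among contralateral cortices, and 0.666 to 0.784 between regions. The 8 neuronal markers were all lower in infarcts, with a summed level of 697 to 2035 counts per 1000000 library counts after TMM scaling (CPM) against 10006 to 11088 in contralateral cortices. The 10 pan-myeloid markers, which include *Ptprc*, *Itgam*, and *Csf1r*, were all higher, with summed levels of 1998 to 3072 CPM against 195 to 253 CPM. Because the tissue is bulk, more myeloid cells and more receptor RNA per cell cannot be told apart.

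All 10 receptor genes passed the filter on low counts, and all 10 were higher in infarcts, with 0 lower. *Clec7a*, *Clec12a*, *Clec4d*, and *Clec4e* had 0 to 5 counts in each contralateral library and passed the filter through their infarct counts. A call of lower, or infarct values below the contralateral ones, was thus not possible for them. With a minimum of 10 counts in every library, 7 of the 10 left the test. Genes were called by edgeR's quasi-likelihood test at a Benjamini-Hochberg adjusted *p* under 0.05 over 15554 tested genes, with a log2 fold change beyond 1. By this rule 25.7% of all tested genes were higher and 20.9% were lower in infarcts. All 10 receptor genes were also called by DESeq2, by which 22.0% of tested genes were higher, and by edgeR's test against a 2-fold change, by which 20.5% were higher. The median log2 fold change of the receptor genes was 5.21, against 0.03 over all tested genes. For all 10, every infarct value lay above every contralateral value, which held for 37.6% of tested genes.

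**Figure D1:**
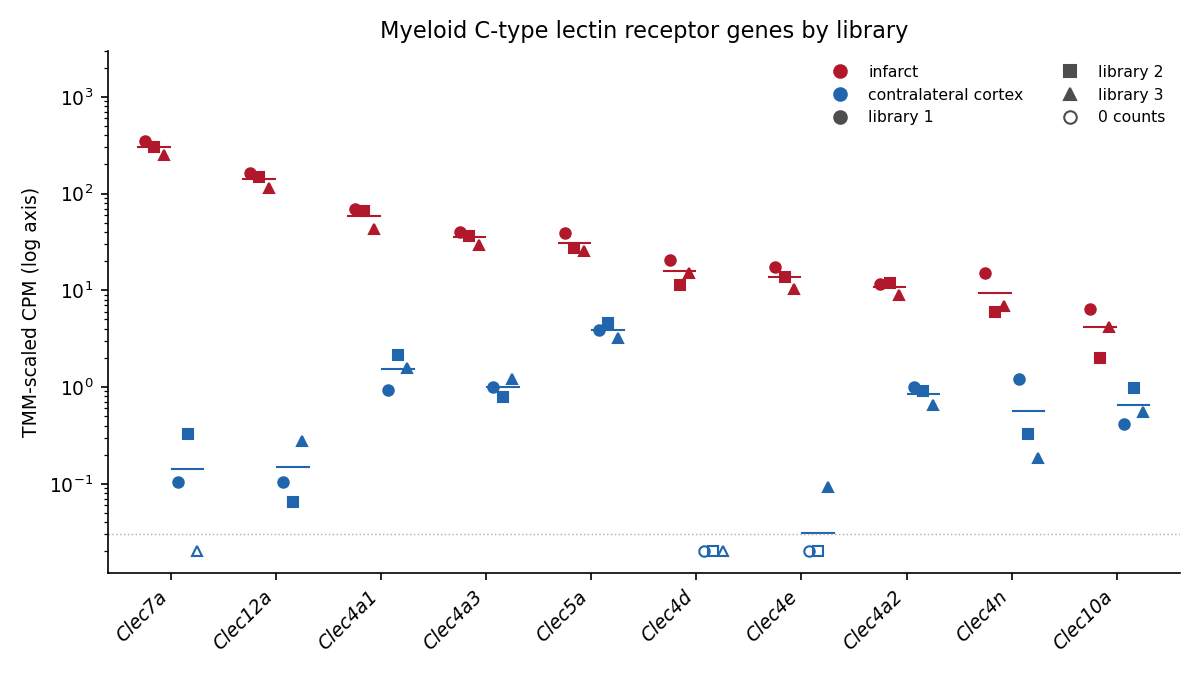
Level of each receptor gene in each library, in CPM on a log axis. Points are single libraries, bars are group means over 3 libraries, and values of 0 are open points under the dotted line. *Clec7a* and *Clec12a* combine the highest infarct levels with contralateral levels near 0, while the infarct and contralateral points of *Clec10a* lie closest together.

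Of the 10 receptor genes, 9 lie on mouse chromosome 6 (GRCm38, GENCODE M21), and *Clec10a* lies on chromosome 11 at 70156197 to 70170834. The Dectin-2 cluster runs from *Clec4a1*, which starts at 122921848, to *Clec4e*, which ends at 123289870, and holds *Clec4a3*, *Clec4a2*, *Clec4n*, and *Clec4d* between them. The Dectin-1 cluster holds *Clec12a* at 129342691 to 129365303 and *Clec7a* at 129461591 to 129472779, a gene that GENCODE M21 classes as a polymorphic pseudogene while the other 9 are classed as protein coding. *Clec5a* lies apart at 40574894 to 40585821. In this annotation no exon base of a receptor gene overlaps an exon of another gene on either strand.

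The start sites of receptor genes that rose together were searched for the core letters bound by PU.1, the ETS factor that myeloid cells rely on. The letters GAGGAA, on either strand, occurred within 250 bases upstream of the RefSeq start (GRCm38.p6) in 8 of 10 windows of the 8 receptor genes with an entry, against 23.3% of 32851 windows of all genes. *Clec4a3* and *Clec7a* have 2 overlapping windows each, and the letters were found in 7 of the 8 genes. *Clec4a2* was the gene without it. Windows of 4 genes are shown over the 150 bases before the start, those of *Clec7a* and *Clec12a* with the most infarct counts, of *Clec4e* from the Dectin-2 cluster, and of *Clec5a* with the most contralateral counts, with GAGGAA or its reverse complement TTCCTC in capitals. *Clec7a* is at chr6:129472780-129472929 on the minus strand, *Clec12a* at chr6:129350094-129350243 on the plus strand, *Clec4e* at chr6:123289872-123290021 on the minus strand, and *Clec5a* at chr6:40585806-40585955 on the minus strand.
Clec7a: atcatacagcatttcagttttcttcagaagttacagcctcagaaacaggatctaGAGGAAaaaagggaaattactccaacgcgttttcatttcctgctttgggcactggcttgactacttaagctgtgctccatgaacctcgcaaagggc
Clec12a: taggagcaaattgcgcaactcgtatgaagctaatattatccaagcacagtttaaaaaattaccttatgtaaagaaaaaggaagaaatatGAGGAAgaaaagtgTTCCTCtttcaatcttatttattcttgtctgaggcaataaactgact
Clec4e: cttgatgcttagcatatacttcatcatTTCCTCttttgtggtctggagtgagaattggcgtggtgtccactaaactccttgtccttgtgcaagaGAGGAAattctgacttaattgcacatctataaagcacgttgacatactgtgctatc
Clec5a: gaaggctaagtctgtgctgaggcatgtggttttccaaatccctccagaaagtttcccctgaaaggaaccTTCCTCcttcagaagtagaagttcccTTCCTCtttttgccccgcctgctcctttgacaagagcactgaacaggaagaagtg

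*Clec12a*, *Clec4e*, and *Clec5a* hold the letters at 2 places each in the 150 bases, and *Clec7a* at 1, whose first base lies 96 bases before the start. In *Clec12a* the 2 places face each other 61 and 47 bases before the start, and in *Clec5a* both are on the reverse strand, at 81 and 55 bases. The RefSeq starts of *Clec12a* and *Clec4a2* used here lie far inside their GENCODE genes. The window of *Clec4a2* ends at 123122689, whereas its GENCODE gene starts at 123106428. The lack of the letters in *Clec4a2* therefore describes that window only. Of the other motifs, TGANTCA (AP-1) occurred in 1 of the 10 windows against 6.75% of all windows, and TTGCNNAA (C/EBP) in 2 against 9.56%. GGGA and CC set 4 bases apart (NF-κB) occurred in 1 against 17.6%, and a pair of GAAA set 2 bases apart (IRF) in 0 against 2.98%. The C/EBP letters were found in *Clec12a* and *Clec4e*. Both strands were searched, none of the motifs contains another, and the matches describe letters only.

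Dectin-1 showed the highest level in infarcts. *Clec7a*, a receptor for β-glucans, had 4428, 4112, and 3631 counts in the infarct libraries and 2, 5, and 0 in the contralateral libraries. The infarct values were close to each other, and the lowest infarct CPM was 761-fold the highest contralateral CPM. The means were 301 ± 52.5 CPM in infarcts against 0.143 ± 0.166 CPM in contralateral cortices (SD, *n* = 3 libraries each), and the log2 fold change was 10.85 ± 0.61 (SE; edgeR adjusted *p* = 1.64e-07). Since the contralateral size rests on 7 counts in all, the ratio of summed counts, scaled for library size, was 1931 with a 95% exact interval of 937 to 4804. Such intervals cover counting error only. Without contralateral library 2, which holds 5 of the 7 counts, the log2 fold change was 11.97.

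Mincle and MCL, which form a complex and bind mycobacterial glycolipids, were nearly absent from contralateral counts. *Clec4d* had 260, 154, and 222 counts in infarcts and 0 in each contralateral library. A floor of 3 counts per library, a chosen value, was set in place of each count of 0. Against this floor *Clec4d* was at least 75-fold higher in infarcts (edgeR adjusted *p* = 4.40e-06). *Clec4e* had 219, 185, and 151 counts in infarcts and 0, 0, and 1 in contralateral cortices. Both genes were present in every infarct library, at 15.7 ± 4.73 CPM for *Clec4d* and 13.8 ± 3.57 CPM for *Clec4e* (SD, *n* = 3 libraries). The ratio of summed counts of *Clec4e* was 616 with a 95% exact interval of 110 to 24388, and its log2 fold change of 8.80 ± 1.42 (SE; edgeR adjusted *p* = 1.17e-06) was 8.16 without contralateral library 1 and 10.70 without contralateral library 3, which holds its single count.

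Dectin-2 and MDL-1 differed less between the regions. *Clec4n*, a receptor for mannose-type sugars, had 188, 81, and 102 counts in infarcts and 23, 5, and 2 in contralateral cortices. Infarct library 1 and contralateral library 1 were each high for their region, but the regions did not overlap. The log2 fold change was 3.87 ± 0.63 (SE; edgeR adjusted *p* = 5.83e-04) and rose to 5.07 without contralateral library 1. *Clec5a* had 487, 371, and 374 counts in infarcts and 75, 71, and 35 in contralateral cortices. It was the best detected receptor gene of the contralateral libraries, and its log2 fold change was 2.95 ± 0.23 (SE; edgeR adjusted *p* = 4.18e-06), with means of 30.5 ± 7.21 and 3.92 ± 0.70 CPM (SD, *n* = 3 libraries each).

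Both inhibitory receptors rose, with log2 fold changes that lay many SEs apart. *Clec12a*, which binds uric acid crystals, had 2045, 2022, and 1655 counts in infarcts and 2, 1, and 3 in contralateral cortices. Its means were 141 ± 25.7 and 0.149 ± 0.113 CPM (SD, *n* = 3 libraries each), so that in infarcts it lay below *Clec7a* in CPM, and in contralateral cortices both were near 0. The log2 fold change was 9.96 ± 0.53 (SE; edgeR adjusted *p* = 1.50e-07), and the ratio of summed counts was 1059 with a 95% exact interval of 486 to 2887. *Clec4a2* had 146, 163, and 130 counts in infarcts and 19, 14, and 7 in contralateral cortices. This gene was detected in all 6 libraries, and its log2 fold change was 3.62 ± 0.28 (SE; edgeR adjusted *p* = 3.59e-06).

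*Clec4a1* and *Clec4a3*, relatives of DCIR in the same gene cluster, rose by amounts that lay within their errors of each other. *Clec4a1* had 870, 895, and 626 counts in infarcts and 18, 33, and 17 in contralateral cortices. *Clec4a3* had 500, 497, and 432 counts in infarcts and 19, 12, and 13 in contralateral cortices. Both were detected in every library, with a wide gap between the regions. The log2 fold change was 5.27 ± 0.31 for *Clec4a1* (SE; edgeR adjusted *p* = 1.11e-06) and 5.16 ± 0.24 for *Clec4a3* (SE; edgeR adjusted *p* = 2.44e-07).

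*Clec10a*, which encodes the galactose-binding receptor MGL1 of macrophages and dendritic cells, showed the smallest difference of the 10. It had 81, 27, and 61 counts in infarcts and 8, 15, and 6 in contralateral cortices. The lowest infarct value, that of infarct library 2, was 2.03-fold the highest contralateral value. The log2 fold change was 2.68 ± 0.53 (SE; edgeR adjusted *p* = 0.00136). Of the 75-base stretches of its annotated transcripts, 4.44% are shared with *Mgl2*, and for *Clec4a2* 3.24% are shared with *Clec4a4* or *Clec4b1*. A read within such a stretch matches more than 1 gene unless its mate tells them apart, whereas the other 8 receptor genes shared none with any gene.

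The infarct libraries were not alike. Infarct library 1 had the highest CPM for 9 of the 10 genes, the exception being *Clec4a2*, and infarct library 3 had the lowest for 7 of 10. The summed level of the receptor genes was 735, 625, and 504 CPM in infarct libraries 1, 2, and 3, and 8.67, 10.2, and 7.75 CPM in the contralateral libraries. The summed pan-myeloid level was 3072, 2267, and 1998 CPM in the same infarcts, and the summed neuronal level was 697, 902, and 2035 CPM. The part of tissue composition in the spread between infarcts was not tested.

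Levels of different genes were compared per kilobase of annotated exon. In infarcts, *Clec7a* averaged 114 CPM per kilobase and stood above the rest without overlap. *Clec4a1*, *Clec4a3*, and *Clec12a* followed at 38.0, 26.6, and 25.6 CPM per kilobase, each overlapping its neighbor in the order. *Clec4d*, *Clec5a*, and *Clec4n* formed the next group at 9.83, 7.95, and 6.55 CPM per kilobase, and *Clec4a2*, *Clec4e*, and *Clec10a* the lowest at 3.70, 2.78, and 1.45 CPM per kilobase. Within each of these groups the ranges of neighbors over the libraries overlapped, although in all 3 infarct libraries *Clec4a1* was above *Clec4a3*, *Clec4a3* above *Clec12a*, *Clec4a2* above *Clec4e*, and *Clec4e* above *Clec10a*.

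The order in contralateral cortex was another. *Clec5a* and *Clec4a1* led at 1.02 and 0.997 CPM per kilobase, followed by *Clec4a3*, *Clec4n*, *Clec4a2*, and *Clec10a* at 0.747, 0.402, 0.291, and 0.224 CPM per kilobase, with overlap between all neighbors. *Clec7a*, *Clec12a*, *Clec4e*, and *Clec4d* lay below them, at 0.054, 0.027, 0.0062, and 0 CPM per kilobase. Thus the 4 least expressed receptor genes of the contralateral cortex included the most expressed receptor gene of the infarct.

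The mix of receptor transcripts therefore differed between regions. *Clec7a* made up 48.5 ± 0.60% of the counts of the 10 genes in infarcts and 1.47 ± 1.62% in contralateral cortices (SD, *n* = 3 libraries each). *Clec12a* made up 22.8 ± 0.86% and 1.81 ± 1.55%. The share of *Clec5a* was lower in infarcts, at 4.90 ± 0.48% against 44.1 ± 2.13%. The contralateral shares rest on 84 to 166 counts per library, whereas the infarct shares rest on 7384 to 9224.

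To place the receptors beside myeloid RNA in general, their counts were divided by the summed counts of the 10 pan-myeloid markers within each library. Per 1000 pan-myeloid counts, the receptor genes together had 239, 276, and 252 counts in infarcts and 37.0, 52.0, and 30.6 in contralateral cortices. The regions did not overlap, and the means of 256 ± 18.4 and 39.9 ± 10.97 (SD, *n* = 3 libraries each) differed 6.41-fold. Without *Clec7a* the ratio was 3.36, and without *Clec7a* and *Clec12a* it was 1.90. These 2 genes thus carried most of the receptor counts in infarcts, but few of them in contralateral cortices, where the sum was 38.6 without them.

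Singly, 6 of the 10 genes stood above the contralateral range on this scale, which held for 5.55% of all tested genes. *Clec7a* averaged 124 ± 9.19 counts per 1000 pan-myeloid counts in infarcts and 0.704 ± 0.863 in contralateral cortices (SD, *n* = 3 libraries each), and *Clec12a* averaged 58.3 ± 6.43 and 0.625 ± 0.411. *Clec4a1* and *Clec4a3* were 3.44-fold and 3.38-fold higher per pan-myeloid count, and *Clec4d* and *Clec4e* were also above without overlap. The regions overlapped for *Clec5a* at 12.5 ± 0.40 and 17.7 ± 5.52, and for *Clec4a2*, *Clec4n*, and *Clec10a*. In 10 exact permutation tests, the two-sided *p* was 0.1 for each of those 6 genes, the smallest that 3 against 3 libraries allow, and 0.2 to 0.5 for the other 4.

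The comparison depended on which marker list formed the denominator. In bulk tissue, the part of other cell types in the counts of each list was not tested. Against 10 homeostatic microglia markers the receptor genes together were 14.9-fold higher in infarcts, and 23.0-fold higher without *Sparc*, which made up 49.4% to 50.1% of that list in infarcts but 20.5% to 23.3% on the contralateral side. Against 10 monocyte and macrophage markers, they stood at 77.2, 76.0, and 86.0 counts per 1000 in infarcts and 75.9, 92.1, and 53.9 in contralateral cortices, which overlapped, with a ratio of 1.08. A single gene, *Lyz2*, made up 79.6% to 83.1% of that list's infarct counts but 12.5% to 16.3% on the contralateral side. *Fn1* made up 11.4% to 14.8% in infarcts but 53.9% to 61.9% on the contralateral side, where *Ccr2* had 9 to 23 counts and *Ly6c2* had 0 to 4. Without *Lyz2* the ratio was 5.06 and without *Fn1* it was 0.513, with no overlap in either case, so that a single gene decided its direction. *Clec7a*, *Clec12a*, *Clec4d*, and *Clec4e* stood above the contralateral range with every denominator used, the lists without *Cybb*, *Sparc*, *Lyz2*, or *Fn1* included. *Clec4a1*, *Clec4a2*, *Clec4a3*, *Clec5a*, and *Clec10a* fell below it against the monocyte and macrophage list. Without *Lyz2* only *Clec5a* and *Clec10a* did, whereas without *Fn1* 6 genes did, namely these 5 and *Clec4n*.

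**Figure D2:**
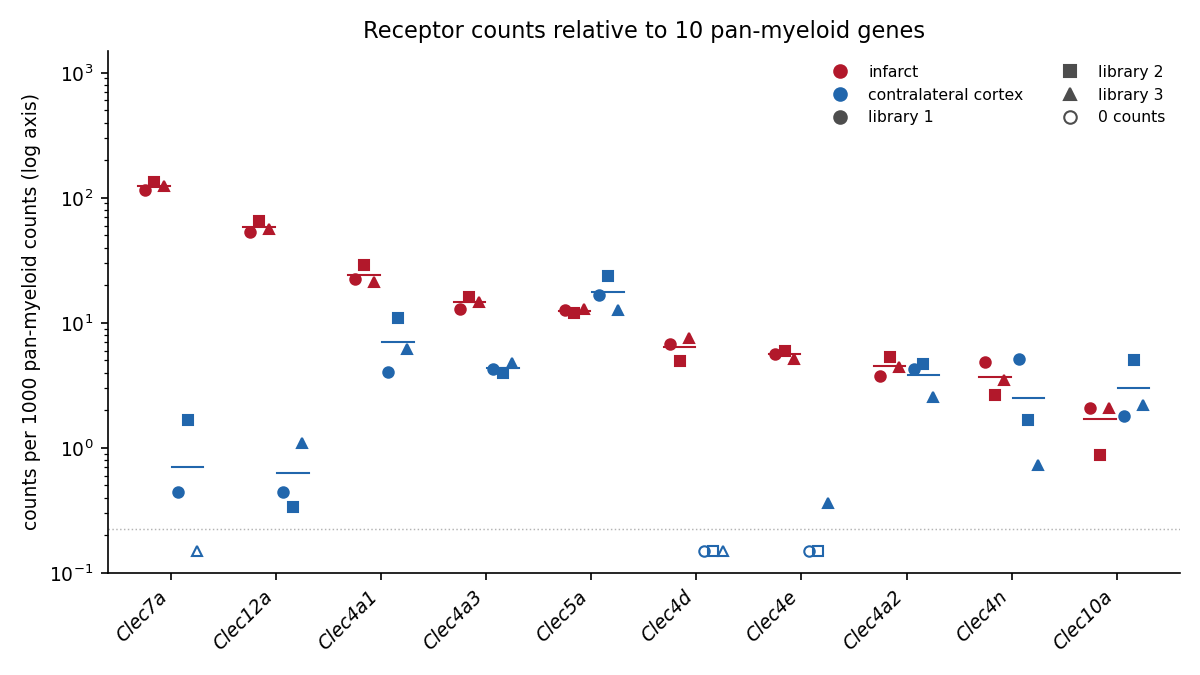
Counts of each receptor gene per 1000 counts summed over the pan-myeloid markers, on a log axis. Points are single libraries, bars are group means over 3 libraries where they lie above the dotted line, and values of 0 are open points under that line. *Clec7a*, *Clec12a*, *Clec4d*, and *Clec4e* are far apart between regions, whereas *Clec5a*, *Clec4a2*, *Clec4n*, and *Clec10a* overlap.

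Neighbors within the clusters were not equally expressed. In the Dectin-2 cluster, *Clec4a4* and *Clec4b2* had 0 counts in all 6 libraries. The chosen floor of 3 counts equals 0.157 to 0.277 CPM depending on the library. *Clec4a4* and *Clec4b2* lie between receptor genes that were called, and *Clec4b1* was the 1 neighbor of 3 that was tested. It had 35, 63, and 31 counts in infarcts and 0, 0, and 1 in contralateral cortices, a ratio of summed counts of 143 with a 95% exact interval of 25.3 to 5702. In the Dectin-1 cluster, 5 of 6 neighbors were tested and all 5 were higher in infarcts, against 25.7% of all tested genes. *Clec12b*, with 2 to 9 counts in infarcts and 0 or 1 in contralateral cortices, was too low to be tested. *Clec4b1*, *Clec1b*, *Olr1*, and *Clec9a* had 0 to 5 counts in each contralateral library and passed the filter through their infarct counts. A call of lower was therefore not possible for them.

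Those 5 are *Clec2d*, *Clec1b*, *Clec9a*, *Clec1a*, and *Olr1*. *Clec9a*, which binds actin of dead cells and marks cross-presenting dendritic cells, had 166, 185, and 126 counts in infarcts and 4, 5, and 3 in contralateral cortices (log2 fold change 5.42 ± 0.41 SE, edgeR adjusted *p* = 1.19e-06). *Olr1*, the oxidized LDL receptor LOX-1, had 68, 61, and 60 counts in infarcts and 0, 0, and 2 in contralateral cortices, a ratio of summed counts of 105 with a 95% exact interval of 28.7 to 873. Both were evenly expressed over the infarcts. *Clec2d* was not, with 218, 1196, and 573 counts in infarcts and 158, 40, and 25 in contralateral cortices. Its log2 fold change of 3.41 ± 0.73 (SE; edgeR adjusted *p* = 0.00803) was 2.66 without infarct library 2 and 4.27 without contralateral library 1. *Clec1b* and *Clec9a* share 3.61% and 5.59% of their exon bases with each other on the same strand.

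**Figure D3:**
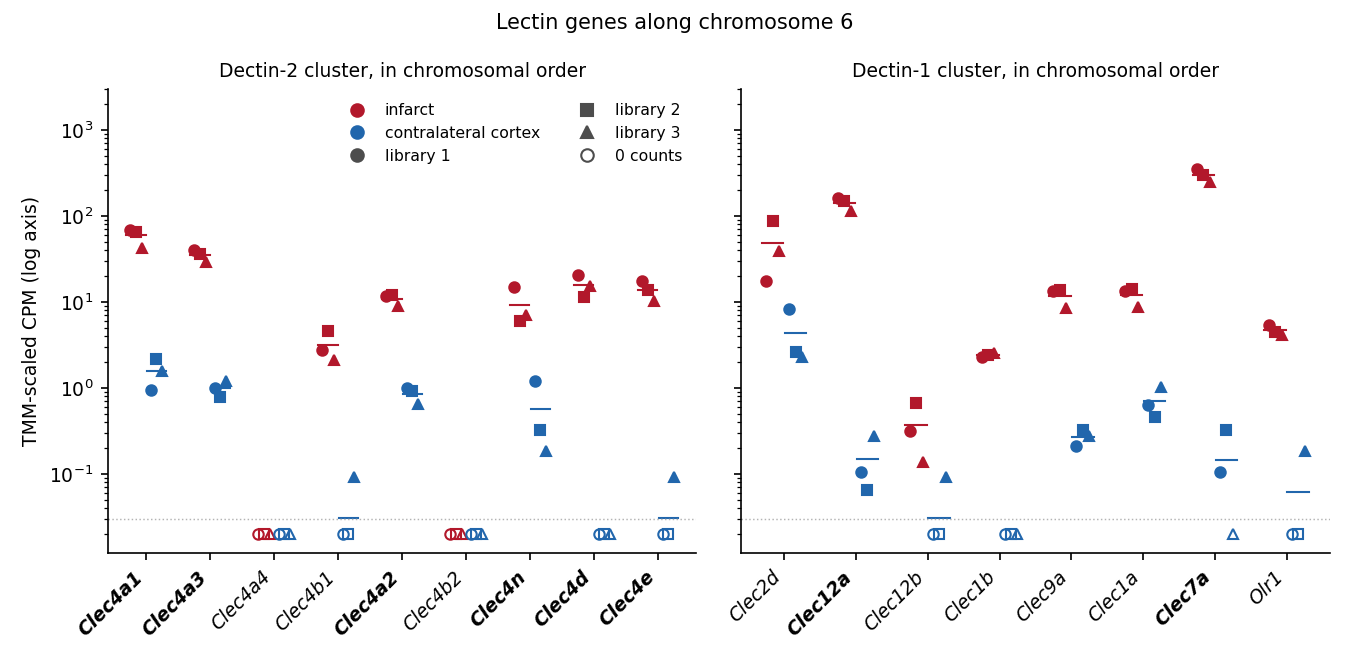
Level of each gene of the Dectin-2 and Dectin-1 clusters in each library, in CPM on a log axis, in their order along chromosome 6. Points are single libraries, bars are group means over 3 libraries, open points under the dotted line are 0 counts, and the names of the receptor genes followed here are in bold. *Clec4a4* and *Clec4b2* are at 0 in all libraries, and infarct values of *Clec2d* spread more widely than those of *Clec7a* or *Clec12a*.

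The signaling partners of the receptors were higher in infarcts as well. All 3 adaptors were called higher, against 25.7% of all tested genes. *Fcer1g*, the partner of Mincle, MCL, and Dectin-2, had 2445, 1803, and 2231 counts in infarcts and 107, 67, and 73 in contralateral cortices (log2 fold change 4.85 ± 0.21 SE, edgeR adjusted *p* = 2.49e-07). *Tyrobp*, the partner of MDL-1, had 937, 675, and 728 counts against 38, 35, and 23 (log2 fold change 4.76 ± 0.22 SE, edgeR adjusted *p* = 3.30e-07). *Hcst* was near the detection limit of the contralateral cortex, with 34, 38, and 23 counts against 0, 1, and 3. It passed the filter through its infarct counts, so a call of lower was not possible for it. Unlike *Clec4d*, *Clec4e*, and *Clec12a*, *Fcer1g* and *Tyrobp* were detected well above 0 in every contralateral library.

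All 12 kinases and genes of the Card9 pathway were higher in infarcts, against 25.7% of all tested genes. Their median log2 fold change was 3.61. *Syk*, the kinase that the activating receptors share, had 2371, 2079, and 1844 counts in infarcts and 88, 53, and 42 in contralateral cortices (log2 fold change 5.28 ± 0.20 SE, edgeR adjusted *p* = 1.64e-07). The Src-family kinase *Fgr* had 723, 668, and 581 counts against 0, 0, and 1, and could not have been called lower. The 5 smallest log2 fold changes of the list belonged to *Card9* and to genes that act with it or after it. *Card9* itself stood at 36, 36, and 25 counts against 18, 8, and 2, and its log2 fold change of 2.02 ± 0.52 (SE; edgeR adjusted *p* = 0.00597) was 2.65 without contralateral library 1. *Bcl10* and *Malt1*, which form a complex with Card9, had log2 fold changes of 1.58 and 2.15, and *Nfkb1* and *Rela* had 2.81 and 2.05.

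Of the 3 phosphatases that inhibitory receptors recruit, 2 were called higher, against 25.7% of all tested genes. *Ptpn6* (SHP-1), a phosphatase of blood cells, had a log2 fold change of 4.60 ± 0.27 (SE; edgeR adjusted *p* = 8.51e-07), and *Inpp5d* (SHIP-1) had 2.83 ± 0.20 (SE; edgeR adjusted *p* = 2.37e-06). *Ptpn11* (SHP-2), which most cell types express, averaged 253 ± 17.4 CPM in infarcts against 225 ± 21.7 CPM in contralateral cortices (SD, *n* = 3 libraries each; log2 fold change 0.17 ± 0.15 SE, edgeR adjusted *p* = 0.323) and was not called.

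**Figure D4:**
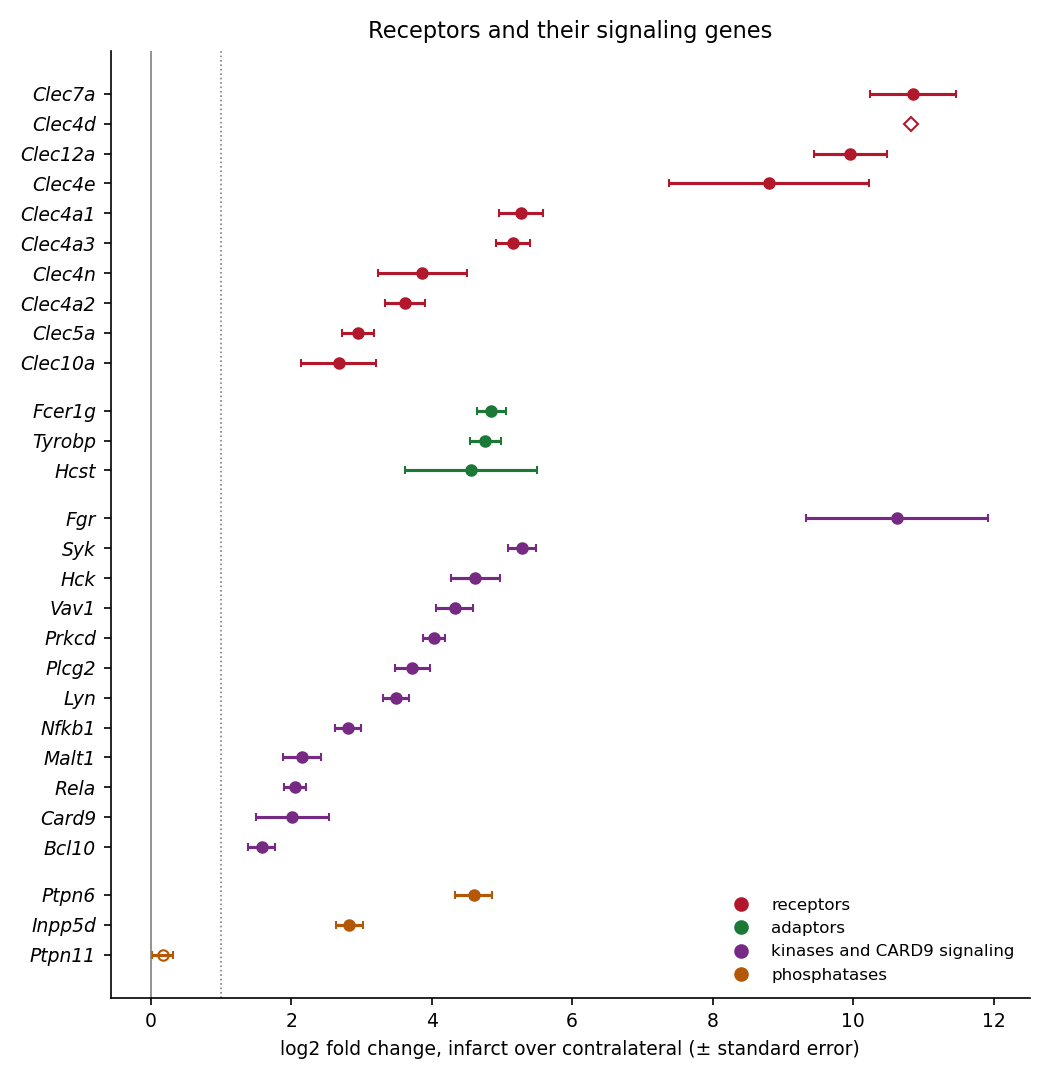
Log2 fold change, infarct over contralateral cortex, of the receptors, adaptors, kinases and Card9 pathway genes, and phosphatases. Points are edgeR estimates over 3 against 3 libraries and bars are SE. The open diamond is *Clec4d*, whose fitted value depends on the model because its contralateral counts are all 0. Against the floor of 3 counts, *Clec4d* is bounded only at 6.23 and above. The open circle is *Ptpn11*, which was not called, and the dotted line marks the threshold of 1. *Clec7a*, *Clec12a*, *Clec4e*, and *Fgr* lie at 8.80 and above, and all other genes but *Clec4d* lie at 5.28 and below.

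Cytokine and inflammasome genes downstream of Syk and Card9 were higher in infarcts where they could be tested, with *Ptgs2* as the exception. Of 15 listed, 9 were tested and 8 were higher in infarcts, against 25.7% of all tested genes. The fitted median log2 fold change of the 9 was 6.02. It became 3.47 with the 3 genes at 0 in all contralateral libraries set to their bounds. Of the 8, all but *Nlrp3* had only 0 to 4 counts in each contralateral library. Those genes passed the filter on low counts through their infarct counts, so a call of lower was not possible for them. *Nlrp3* had 109, 80, and 96 counts in infarcts and 12, 6, and 10 in contralateral cortices. *Il1rn*, the interleukin 1 receptor antagonist, had 343, 386, and 400 counts in infarcts and 0, 0, and 1 in contralateral cortices. *Il1b* had 62, 62, and 45 counts against 4, 0, and 2, and *Tnf* had 17, 27, and 17 against 0 in each. Against the floor of 3 counts *Tnf* was at least 7.15-fold higher. *Il1b* and *Tnf* were thus present at few counts in each infarct, and *Il6*, *Il10*, *Il23a*, *Cxcl2*, *Csf2*, and *Csf3* were too low to be tested. *Ptgs2*, which cortical neurons also express, had 516, 753, and 607 counts against 687, 585, and 363 (log2 fold change 0.36, edgeR adjusted *p* = 0.0866) and was not called. Scaled for library size, it stood at 41.1, 55.3, and 41.4 CPM in infarcts and 35.9, 38.1, and 33.5 CPM in contralateral cortices, without overlap.

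Other lectin receptors, listed as myeloid, rose too, in data where 25.7% of all tested genes were higher in infarcts. Among them, *Mgl2* had 1 to 5 counts in each contralateral library and passed the filter through its infarct counts. Of 13 listed, 7 were tested and all 7 were higher in infarcts, with a median log2 fold change of 3.05 and a range of 2.13 to 3.76, which lies below the log2 fold changes of 7 of the 10 receptor genes. Of those 7 receptor genes, *Clec4n*, at 3.87 ± 0.63 (SE), lay within its error of the upper end. *Mrc1*, the mannose receptor, had 2798, 2202, and 1653 counts in infarcts and 320, 214, and 138 in contralateral cortices (log2 fold change 3.51 ± 0.24 SE, edgeR adjusted *p* = 3.64e-06). *Cd209a*, a relative of DC-SIGN, was at the low end with 45, 47, and 42 counts against 14, 6, and 13 (log2 fold change 2.13 ± 0.43 SE, edgeR adjusted *p* = 0.00152). *Cd207*, *Clec4f*, *Cd209b*, *Cd209d*, *Cd209f*, and *Cd209g* were too low to be tested, and *Cd207*, *Clec4f*, *Cd209d*, and *Cd209g* had 0 or 1 count over all infarct libraries.

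The genes whose log2 CPM profile over the 6 libraries was closest to the mean profile of the 10 receptor genes were *Tnfrsf1b*, *Myof*, *Scimp*, *Kcnn4*, and *H2-DMb1*, at Euclidean distances of 0.27 to 0.41 on the log2 scale. *Tnfrsf1b* encodes the TNF receptor TNFR2 and *Scimp* a transmembrane adaptor of immune cells. *Tnfrsf1b* averaged 238 ± 61.8 CPM in infarcts against 5.31 ± 0.27 CPM in contralateral cortices (SD, *n* = 3 libraries each), a log2 fold change of 5.48 ± 0.20 (SE). *Scimp* and *Kcnn4* had 0 counts in all contralateral libraries, with fitted log2 fold changes of 9.44 and 9.25. The log2 CPM hold a small added offset that shrinks differences for genes near 0. A small distance therefore does not mean an equal fold change. The receptor genes themselves lay at 0.89 for *Clec4a3* to 5.86 for *Clec7a* from their own mean, so the mean profile described *Clec4a1* and *Clec4a3* better than *Clec7a* or *Clec5a*.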

How the data were processed

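Per the labels and the study's methods, the authors sequenced stranded poly(A) RNA libraries, demultiplexed the reads with bcl2fastq 2.19, trimmed them with Trimmomatic 0.32, aligned them to GRCm38 with STAR 2.5.2b, and counted them with htseq-count, whose version, annotation, and strand setting are not given in the sources used here. The deposited values are raw counts per Ensembl gene for each library. Entries that name no gene were left out.

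Here, counts were analyzed with edgeR 4.0.16 in R 4.3.3 (filterByExpr, TMM scaling, glmQLFit with robust dispersions and region as the only term, glmQLFTest). The biological coefficient of variation was 0.220. CPM use TMM-scaled library sizes. The main test was checked on simulated data, with a fixed fold change given to genes detected in contralateral cortices. This check does not cover genes near 0 there. Alternatives were DESeq2 1.42.0, limma 3.58.1 with voom, other scalings, filters, a replicate block, and each library left out. Tables were made with pandas 2.3.3 and SciPy 1.17.1.

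Positions come from GENCODE M21, in which 45229 identifiers were found. Members and gene lists were chosen with earlier results of these data known, so no *p* is given for a list or for a sum over the members. Named genes are the members, the listed genes at the ends of a range or with a role told in the text, and the 5 genes nearest to the members' mean profile.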

Additional observations from a re-analysis of the deposited data

How the results depend on the processing

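The 10 receptor genes were called higher under 13 of the 14 alternatives run. With a minimum of 10 counts in each of the libraries, which removes genes that are near 0 in contralateral cortex from the test, 3 receptor genes were tested and called (*Clec4a1*, *Clec4a3*, and *Clec5a*), and among the listed genes 0 of the Dectin-2 cluster neighbors, 1 of the Dectin-1 cluster neighbors, and 0 cytokine genes were called higher. All 133 log2 fold changes of single receptor genes under these alternatives were positive and past both thresholds. The most variable were *Clec4n*, at 3.36 to 5.07, and *Clec4e*, at 8.16 to 10.70, when each library was left out in turn. Same-numbered libraries deviated together at correlations of -0.19, 0.101, and 0.001. Each deviation is from a mean of only 3 libraries, so these values cannot show whether an infarct and a cortex share a mouse. With the replicate block, 10 receptor genes were called, the median log2 fold change was 5.23, and 3945 genes were higher and 3222 lower against 3999 and 3256 without it. Scaling by library totals moved the median of all genes by 0.203 on the log2 scale. The ratio per pan-myeloid count rests partly on *Cybb*, which held 27.1% to 33.2% of the list's infarct counts but 0.967% to 1.13% on the contralateral side. Other genes weighed more on the contralateral side. *Csf1r* held 50.0% to 55.0% there against 17.5% to 21.7% in infarcts. *Coro1a* held 981, 592, and 503 of 4483, 2999, and 2741 contralateral counts, against 1766, 1322, and 1353 of 38567, 30871, and 29279 in infarcts. The ratio without *Csf1r* or *Coro1a* was not tested. The ratio was compared as the difference of mean log2 values, which is not the log2 of the ratio of means. It was 2.71, or 2.54 to 2.92 when each library was left out, and became 3.90 against microglia markers, 0.14 against monocyte and macrophage markers, and 1.78 without *Clec7a*. In alternatives chosen after seeing the data, it was 3.23 without *Cybb*, 0.96 without *Clec7a* and *Clec12a*, 4.53 against microglia markers without *Sparc*, 2.37 against monocyte and macrophage markers without *Lyz2*, and reversed to -0.94 against the latter without *Fn1*. With 0 to 5 contralateral counts per library for *Clec7a*, *Clec12a*, *Clec4d*, and *Clec4e*, depth limits the size of their fold changes. These genes passed the filter through their infarct counts, so the test could give them no other direction.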

Other observations

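Markers of myeloid cell types differed in how they moved. Of 10 homeostatic microglia markers, 6 were higher in infarcts, with a median log2 fold change of 1.69, while *P2ry12* (-0.20), *Siglech* (0.02), *Sall1* (0.47), and *Gpr34* (0.95) were not called. *Gpr34* lay just under the fold threshold and passed it without infarct library 1, without infarct library 3, or without contralateral library 3. Of 10 monocyte and macrophage markers, 9 were higher with a median of 6.93, the exception being *Vcan*, and of 8 border macrophage markers 7 were higher with a median of 2.85, the exception being *Cd163*. Among those 7, *Cbr2* lost its call without contralateral library 1 (edgeR adjusted *p* = 0.0526) and without contralateral library 2 (edgeR adjusted *p* = 0.0618). Of 10 dendritic cell markers 8 were higher, and *Flt3* and *Zbtb46* were not called.

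Neutrophil markers other than *Csf3r* had few counts. Of 10 listed, 5 were tested and all 5 were higher. The summed level was 57.7 to 73.0 CPM in infarcts against 4.75 to 6.37 CPM in contralateral cortices. *Csf3r* made up most of it, at 44.9 to 53.7 CPM in infarcts. *S100a8* had 120, 118, and 91 counts against 2, 5, and 6, and *Cxcr2* had 69, 43, and 39 against 0, 0, and 1. *Mpo*, *Retnlg*, *Camp*, *Elane*, and *Ly6g* were too low to be tested. *Elane* had 0 counts in all libraries and *Ly6g* had 2 counts in infarct library 2 and 0 elsewhere. Lymphocyte markers were higher too, with 8 of 8 tested T cell markers and 7 of 7 B cell markers called, and infarct library 1 had the highest sums, at 175 CPM for T cells and 312 CPM for B cells against 44.4 to 65.5 CPM and 137 to 157 CPM in the other infarcts. Beside the counts called in these marker lists, 25.7% of all tested genes were higher. Markers near 0 in contralateral cortices, such as *Cd2* and *Cd8a* at 0 counts, passed the filter through their infarct counts. A call of lower was not possible for such markers. The part of any of these cell types in the receptor levels was not tested.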
